A study of Mus musculus with 18 samples.

Results

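The hAT superfamily of DNA transposons was represented by 152 of the 1365 repeat subfamilies in each of 3 tables of RNA-seq comparisons. Members were the rows whose repeat class begins with DNA/hAT, a rule that uses no measured value. Of these, 81 were of the class hAT-Charlie, 43 of hAT-Tip100 and 8 of hAT-Blackjack. The remaining 20 were 4 rows of plain hAT, 3 of hAT-Ac, 2 of hAT-Tag1, 7 of hAT? and 4 of hAT-Tip100?, where the question mark is part of the class name and marks an unsure assignment. A single further row, Eutr16, of class DNA?/hAT-Tip100?, fell outside the rule.

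hAT elements, named after hobo of the fruit fly, Ac of maize and Tam3 of the snapdragon, move by cut and paste: a transposase recognises inverted repeats at the element's ends, excises the DNA and inserts it elsewhere. Autonomous elements such as Charlie and Zaphod encoded a transposase. Many elements with MER names are short relatives that lack the gene and were mobilised by the enzyme of others. In the mouse lineage these elements have long ceased to move, and their copies persist as fossils in introns and between genes, where they can be part of longer transcripts. Several hAT transposases became host genes, among them the ZBED family of DNA-binding proteins.

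The study sequenced poly(A) RNA after inhibition of HSP90, a chaperone that helps many signalling and regulatory proteins fold. The 18 libraries formed 6 groups of 3. Embryonic stem cells (ESCs) of the 129S1/CASTEiJ background, kept in 2i medium, were treated with 100 nM of the HSP90 inhibitor NVP-AUY922 or left untreated. Bone-marrow-derived macrophages of the BALBC/C57BL6 background, grown with M-CSF, were treated with 500 nM or left untreated, and neuronal progenitor cells (NPCs) of the 129S1/CASTEiJ background, grown with EGF and FGF, with 50 nM or left untreated. Treatment lasted 24 h. Dose differs with cell type, and so does the strain of the macrophages, so their parts in a difference between cell types cannot be told apart. The tables hold repeats and no genes, so the cell type labels were not checked against marker genes.

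Each table gives 1 value per subfamily for the contrast of its 6 libraries, so values stand per cell type and not per library. The base mean is the mean of normalised reads over these libraries, summed over all genomic copies. It is not per length or per copy, and it is used here only as a measure of the reads behind a value. The log2 fold change has a standard error (SE), given after ±, and a subfamily is called where the authors' adjusted p was under 0.05. Which group was divided by which is not stated in the sources at hand. Values are therefore given by their sign, positive or negative, with no statement on which sign stands for the inhibitor. Because RNA came from bulk cultures, more cells of one kind and more RNA per cell cannot be told apart.

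In ESCs few hAT subfamilies were called, in macrophages and NPCs more, and in all 3 cell types most members lay close to 0. The authors' deposited table for ESCs had 10 called of 133 tested members (7.52%), with 7 positive and 3 negative, against 22.2% of all 1132 tested rows (10.2% called positive and 12.0% negative). For macrophages 31 of 147 were called (21.1%), with 11 positive and 20 negative, in the authors' deposited table, against 25.8% of all 1255 tested rows. Sides were nearly even there over all rows, 13.3% positive and 12.5% negative. For NPCs 24 of 149 were called (16.1%), with 9 positive and 15 negative, in the authors' deposited table, against 11.8% of all 1249 tested rows (4.96% called positive and 6.81% negative). Differences between these shares were not tested.

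Members had lower base means and wider errors than all rows by the median. Tested members had a median SE of 0.21 (ESCs), 0.21 (macrophages) and 0.30 (NPCs), against 0.14, 0.17 and 0.27 over all tested rows of the authors' deposited tables, in that order. Where the base mean was at least 50, 6 of 83 members (7.23%) were called in ESCs, against 26.0% of all such rows. The same restriction left 22 of 73 called in macrophages (30.1%), against 36.3%, and 15 of 75 in NPCs (20.0%), against 15.3%. This restriction did not make reads alike: in ESCs these members had a median base mean of 137 and a median SE of 0.17, against 494 and 0.11 over all such rows, and the part of reads in the lower share was not tested. Tested members had a median log2 fold change of 0.02 (ESCs), -0.08 (macrophages) and 0.01 (NPCs), against 0.0019, -0.0129 and 0.00089 over all tested rows of the authors' deposited tables.

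**Figure D1:**
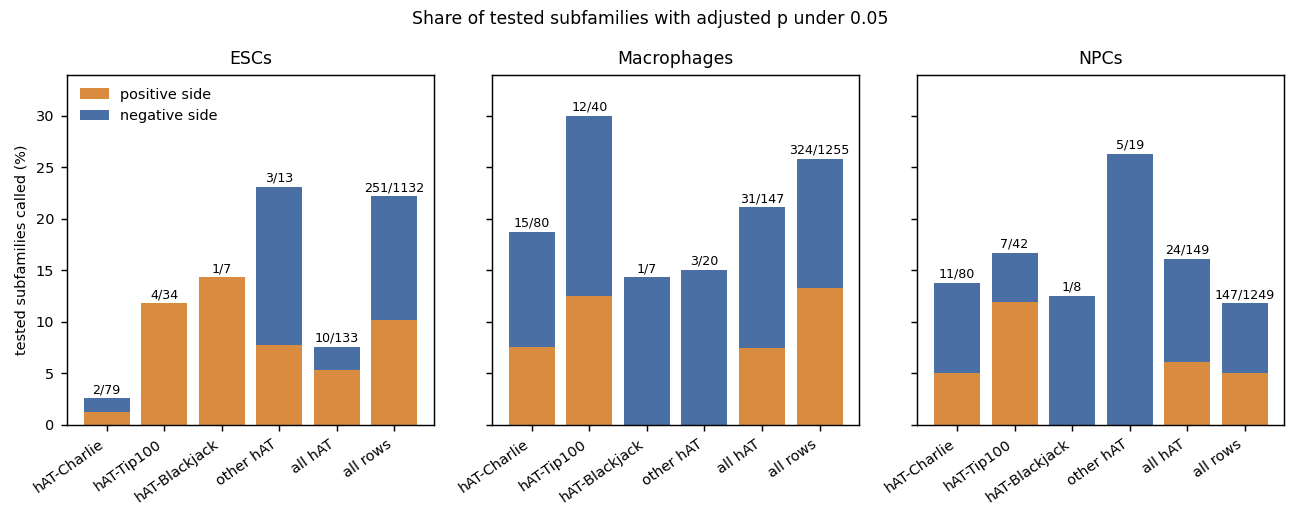
Percentage of tested subfamilies with an adjusted p under 0.05 in each cell type (vertical axis), by hAT class, for all hAT members and for all rows; orange marks the positive and blue the negative side, and the fraction above a bar gives called over tested. All hAT members stood at 10 of 133 in ESCs, 31 of 147 in macrophages and 24 of 149 in NPCs.

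Over all tested rows, 115 positive and 136 negative of 1132 were called in ESCs, 167 and 157 of 1255 in macrophages, and 62 and 85 of 1249 in NPCs. hAT-Charlie had 1 positive and 1 negative subfamily of 79 tested in ESCs, 6 and 9 of 80 in macrophages, and 4 and 7 of 80 in NPCs. hAT-Tip100 had 4 positive and 0 negative of 34 in ESCs, 5 and 7 of 40 in macrophages, and 5 and 2 of 42 in NPCs. Of the 34 hAT-Tip100 rows tested in ESCs, 7 had an unadjusted p under 0.05, and of the 79 hAT-Charlie rows 11, against 353 of all 1132 tested rows. The small hAT-Blackjack class had 1 called member in each cell type, of 7 tested in ESCs, 7 in macrophages and 8 in NPCs. The remaining classes, pooled, had 1 positive and 2 negative of 13 in ESCs, 0 and 3 of 20 in macrophages, and 0 and 5 of 19 in NPCs. Their median log2 fold change stood at -0.10 (ESCs), -0.23 (macrophages) and -0.29 (NPCs), with 8 of 13, 17 of 20 and 15 of 19 members below 0 in the authors' deposited tables. Over all tested rows 561 of 1132, 645 of 1255 and 623 of 1249 lay below 0, in the same order. The plain hAT class went the other way in NPCs, where all 4 of its rows lay above 0. In macrophages the pooled rows had a median base mean of only 8.36.

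In ESCs the called members were modest in size. hAT-N1_Mam, a mammalian element of class hAT-Tip100?, had a log2 fold change of -1.07 ± 0.24 (2.10-fold) with a base mean of 45.9 and an adjusted p of 8.72e-05, per the authors' deposited table. Farthest on the positive side, the authors' deposited table had MER91C, of hAT-Tip100, at 1.18 ± 0.31 (2.27-fold, adjusted p 0.00107), but its base mean was only 20.8. These were the 2 called members beyond 1 on the log2 scale. MER58C, a short hAT-Charlie element, had the smallest adjusted p of the members in ESCs (1.98e-05): the authors' deposited table put it at -0.59 ± 0.12 with a base mean of 828. The other hAT-Charlie call was Charlie29b at 0.71 ± 0.17.

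The further positive calls in ESCs belonged to hAT-Tip100 and smaller classes. In the authors' deposited table MER45A lay at 0.74 ± 0.19 and MER45R, which shares its name stem, at 0.64 ± 0.19. ORSL-2b lay at 0.81 ± 0.30, MER63B of hAT-Blackjack at 0.55 ± 0.16 and MER53 of the plain hAT class at 0.33 ± 0.11 in the authors' deposited table. MER99, of class hAT?, was the remaining negative call at -0.88 ± 0.26. Adjusted p of these 6 lay between 6.89e-04 for MER45A and 0.0318 for ORSL-2b in the authors' deposited table.

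**Figure D2:**
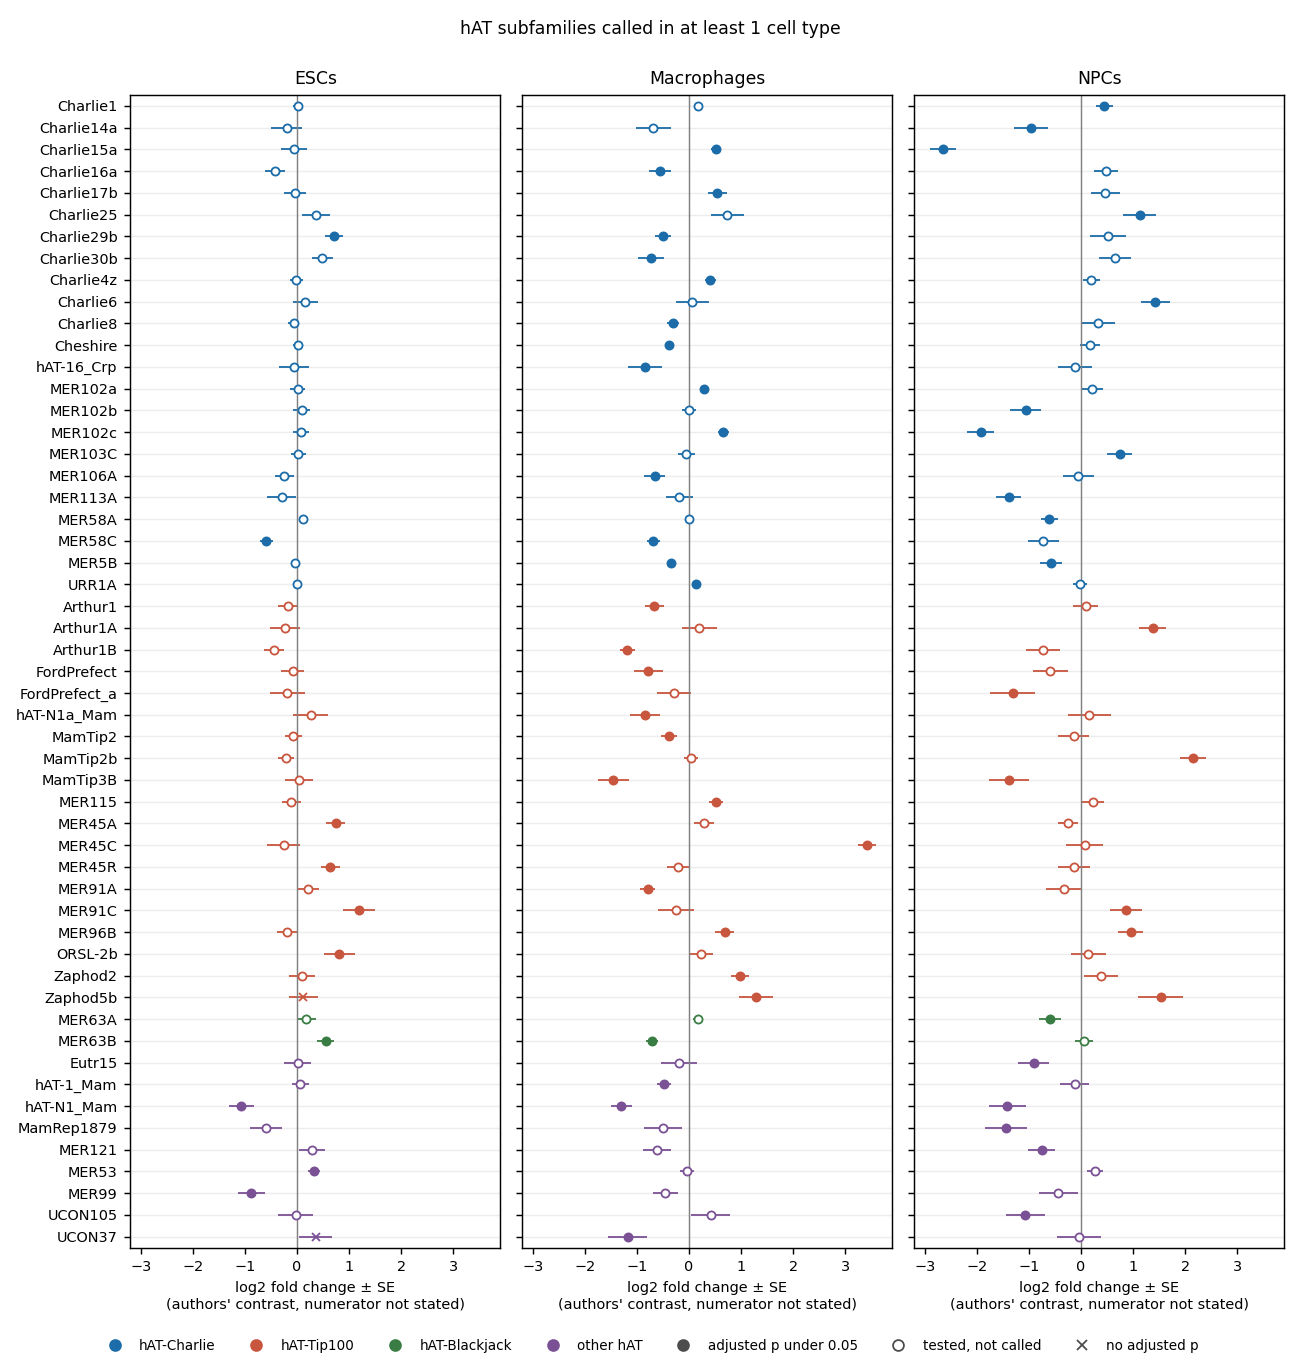
Log2 fold change with its SE (horizontal axis) of the 53 hAT subfamilies called in at least 1 cell type, 1 panel per cell type, coloured by class; filled points passed an adjusted p of 0.05, open points did not, and crosses carry no adjusted p. MER45C at 3.41 in macrophages and Charlie15a at -2.64 in NPCs lie farthest out.

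In macrophages 1 member stood far from all the others. For MER45C, a short hAT-Tip100 element, the authors' deposited table gave a log2 fold change of 3.41 ± 0.17. This is a 10.7-fold difference, with a 95% interval from 8.41-fold to 13.5-fold and an adjusted p of 8.99e-83. By absolute value MamTip3B came next, at -1.45. Other MER45 rows, MER45A, MER45B and MER45R, lay at 0.29 ± 0.19, 0.03 ± 0.18 and -0.21 ± 0.22 in macrophages and were not called there. The base mean of MER45C was 206 in macrophages, against 15.8 in ESCs and 18.5 in NPCs, each on its own table's scale. Its value was -0.26 ± 0.32 in ESCs and 0.07 ± 0.36 in NPCs in the authors' deposited tables, with neither called.

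The other hAT-Tip100 members called in macrophages fell on both sides. The authors' deposited table had Zaphod5b at 1.28 ± 0.33 and Zaphod2 at 0.98 ± 0.18, and their base means were 9.57 and 61.5. Next came MER96B at 0.69 ± 0.18 and MER115 at 0.52 ± 0.13. Far on the negative side were MamTip3B at -1.45 ± 0.29 (2.74-fold, base mean 23.9) and Arthur1B at -1.19 ± 0.14 (2.28-fold, base mean 119, adjusted p 2.27e-15) in the authors' deposited table. hAT-N1a_Mam at -0.84 ± 0.29, MER91A at -0.80 ± 0.15, FordPrefect at -0.78 ± 0.27, Arthur1 at -0.66 ± 0.19 and MamTip2 at -0.39 ± 0.15 were also negative in the authors' deposited table. MamTip2, with an adjusted p of 0.0452, was the 1 macrophage call lost when values were centred on the median of all tested rows.

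All hAT-Charlie calls in macrophages lay within 1 of 0 on the log2 scale. The authors' deposited table had MER102c at 0.66 ± 0.11, Charlie17b at 0.54 ± 0.18, Charlie15a at 0.51 ± 0.09, Charlie4z at 0.41 ± 0.10 and MER102a at 0.29 ± 0.09. URR1A, a rodent element with the most reads of any member, had a called value of only 0.13 ± 0.04 at a base mean of 7574 (1.09-fold, adjusted p 0.00639) in the authors' deposited table. Of the negative calls, MER5B at -0.35 ± 0.06 and Cheshire, an autonomous element, at -0.39 ± 0.08 had the narrowest errors of this class in the authors' deposited table. Errors were wider for hAT-16_Crp at -0.85 ± 0.33, Charlie30b at -0.73 ± 0.25, Charlie16a at -0.55 ± 0.21 and MER106A at -0.66 ± 0.21. MER58C at -0.69 ± 0.13, Charlie29b at -0.50 ± 0.15 and Charlie8 at -0.31 ± 0.11 completed the negative calls of the class.

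Outside the Charlie and Tip100 classes, every macrophage call was negative, 1 of 7 tested hAT-Blackjack rows and 3 of 20 of the remaining classes. Over all tested rows 13.3% were called positive and 12.5% negative there. The calls outside both classes were MER63B of hAT-Blackjack at -0.71 ± 0.12, hAT-N1_Mam at -1.30 ± 0.21, UCON37 of hAT-Ac at -1.18 ± 0.37 and hAT-1_Mam of hAT-Tag1 at -0.48 ± 0.13 in the authors' deposited table. UCON37 had a base mean of 4.80, so few reads stand behind it. The UCON names were given to ancient repeats found as conserved elements across vertebrates.

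NPCs held the largest negative values among members. Per the authors' deposited table Charlie15a, of hAT-Charlie, had a log2 fold change of -2.64 ± 0.25 (6.25-fold, 95% interval 4.44 to 8.79; adjusted p 1.57e-23). Its base mean was 356 there, 483 in macrophages and 42.1 in ESCs, each on its own table's scale. Charlie15a lay at 0.51 ± 0.09 in macrophages and at -0.06 ± 0.24 in ESCs. The authors' deposited table had MER102c at -1.93 ± 0.26 (3.80-fold, base mean 610) and MER102b at -1.06 ± 0.29 (2.09-fold, base mean 761). MER102a lay at 0.21 ± 0.21 and was not called, so the MER102 names did not share a value. MER113A lay between these in the authors' deposited table, at -1.39 ± 0.24 (2.62-fold, adjusted p 4.42e-07).

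The other hAT-Charlie calls in NPCs included some of the members richest in reads. MER58A had a base mean of 2126 and MER5B of 2403, and their log2 fold changes were -0.61 ± 0.16 and -0.58 ± 0.21 in the authors' deposited table. Charlie14a, with fewer reads, lay at -0.97 ± 0.32. MER5B only just passed, with an adjusted p of 0.0490 there. On the positive side were Charlie6 at 1.43 ± 0.28, Charlie25 at 1.12 ± 0.31, MER103C at 0.74 ± 0.23 and Charlie1, an autonomous element, at 0.44 ± 0.16 in the authors' deposited table.

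hAT-Tip100 members in NPCs were led, in the authors' deposited table, by MamTip2b at 2.14 ± 0.25 (4.42-fold, 95% interval 3.15 to 6.20), with a base mean of 1070 and an adjusted p of 9.67e-16. Its namesake MamTip2 lay at -0.14 ± 0.30. Zaphod5b, Arthur1A, MER96B and MER91C were also positive, at 1.52 ± 0.43, 1.38 ± 0.26, 0.95 ± 0.24 and 0.85 ± 0.31 in the authors' deposited table, and MamTip3B and FordPrefect_a negative, at -1.37 ± 0.38 and -1.31 ± 0.43. Zaphod5b and FordPrefect_a rest on base means of 5.44 and 7.89.

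Over all tested rows in NPCs 4.96% were called positive and 6.81% negative. All calls of the smaller classes there were negative, 1 of 8 tested hAT-Blackjack rows and 5 of 19 of the remaining classes. In class hAT-Tip100? these were MamRep1879 at -1.44 ± 0.41, hAT-N1_Mam at -1.42 ± 0.35 and Eutr15 at -0.91 ± 0.30, which is 3 of the 4 members of that class, in the authors' deposited table. In class hAT?, the authors' deposited table had UCON105 at -1.07 ± 0.37 and MER121 at -0.76 ± 0.25. MER121 is an ancient repeat known for the unusual conservation of its copies in mammals. MER63A was the hAT-Blackjack call at -0.60 ± 0.21 (adjusted p 0.0442). Base means of these 6 ranged no higher than 130.

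**Figure D3:**
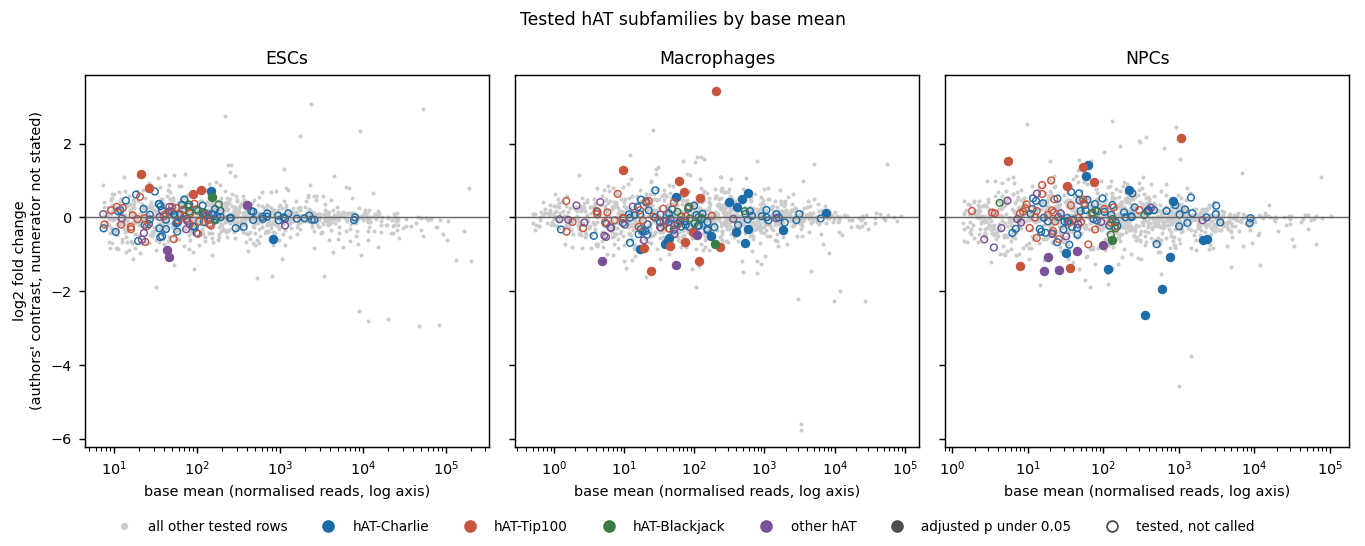
Log2 fold change (vertical axis) against base mean (horizontal log axis) of tested hAT subfamilies, coloured by class and filled where called, over all other tested rows in grey, 1 panel per cell type. URR1A and URR1B, the rightmost coloured points, lie close to 0 in each panel, while MamTip2b at 1070 and 2.14 stands out in NPCs.

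Of the 5 members with the most reads in each cell type, most lay near 0 with narrow errors. URR1A was called in macrophages at 0.13 ± 0.04, as given above. URR1A and URR1B, rodent hAT-Charlie elements, lay at 0.00 ± 0.07 and -0.07 ± 0.07 in ESCs and at -0.02 ± 0.13 and -0.15 ± 0.13 in NPCs in the authors' deposited tables. URR1B lay at -0.03 ± 0.04 in macrophages, with a 95% interval of -0.10 to 0.05. MER20, a short element some copies of which serve as enhancers in the human endometrium, stood at -0.06 ± 0.07 (ESCs), 0.09 ± 0.05 (macrophages) and 0.08 ± 0.14 (NPCs) in the authors' deposited tables. MER5A lay at 0.05 ± 0.07, -0.07 ± 0.05 and -0.13 ± 0.14, and RCHARR1 at -0.06 ± 0.08, -0.14 ± 0.09 and -0.00 ± 0.13, in the same order. RCHARR1 was not among the 5 in NPCs. MER5B, with more reads there (base mean 2403 against 2332), was called at -0.58 ± 0.21, and MER58A (2126) at -0.61 ± 0.16. In macrophages MER5B, at a base mean of 1853, was called at -0.35 ± 0.06, so nearness to 0 did not hold for all members rich in reads. Charlie8, among the 5 with the most reads in NPCs, lay at 0.32 ± 0.32 there, an error as wide as the value. The 5 members with the most reads held 49.1% (ESCs), 48.0% (macrophages) and 46.5% (NPCs) of the summed base mean of all hAT rows. All hAT rows held 1.22%, 2.29% and 2.84% of the summed base mean of every repeat row, in the same order.

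Intervals also show how much of the superfamily was pinned down. Of the tested members, 63 of 133 in ESCs, 51 of 147 in macrophages and 29 of 149 in NPCs had a 95% interval wholly within a 1.5-fold difference on either side. Over all tested rows these were 629 of 1132, 551 of 1255 and 319 of 1249, so the count was lowest in NPCs there too. For hAT-Charlie these were 43 of 79, 38 of 80 and 23 of 80, and for hAT-Tip100 only 11 of 34, 5 of 40 and 2 of 42. A miss in hAT-Tip100, and in NPCs in general, therefore leaves room for changes of that size. Over all cell types 53 members were called at least once and 99 never, and 80 of those 99 were tested in all 3 tables. In the authors' deposited tables the largest absolute value among the members never called was 1.001, that of MamTip1 in NPCs (adjusted p 0.0515). Of all 1285 rows tested in at least 1 table, 538 (41.9%) were called at least once. The 99 members never called include 2 that were tested in no table.

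Of these 53 members, 42 were called in 1 cell type (79.2%), 10 in 2 (18.9%) and 1 in all 3 (1.89%), against 71.9%, 21.9% and 6.13% of all 538 rows called at least once. The single member called in all was hAT-N1_Mam, negative throughout: the authors' deposited tables had it at -1.07 ± 0.24 in ESCs, -1.30 ± 0.21 in macrophages and -1.42 ± 0.35 in NPCs. Of the 11 members called more than once, 7 lay on the same side each time. Sides of repeated calls were not counted over all rows, so the counts of sides are description only. MER58C was negative in ESCs and macrophages at -0.59 ± 0.12 and -0.69 ± 0.13, and lay at -0.72 ± 0.29 in NPCs without being called (adjusted p 0.0970), in the authors' deposited tables. MamTip3B and MER5B were negative in macrophages and NPCs, MER96B and Zaphod5b positive in both, and MER91C positive in ESCs and NPCs.

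The other 4 lay on opposite sides. Charlie29b and MER63B were positive in ESCs, at 0.71 ± 0.17 and 0.55 ± 0.16, and negative in macrophages, at -0.50 ± 0.15 and -0.71 ± 0.12, in the authors' deposited tables. Charlie15a and MER102c were positive in macrophages, at 0.51 ± 0.09 and 0.66 ± 0.11, and negative in NPCs, at -2.64 ± 0.25 and -1.93 ± 0.26, in the authors' deposited tables. These statements take a sign to mean the same group in each table, which no source at hand states. ESCs and macrophages shared 4 called members (40.0% of the ESC calls and 12.9% of the macrophage calls), ESCs and NPCs 2 (20.0% and 8.33%), and macrophages and NPCs 7 (22.6% and 29.2%). Over all rows these shares were 42.2% and 32.7% for ESCs and macrophages, 20.7% and 35.4% for ESCs and NPCs, and 18.2% and 40.1% for macrophages and NPCs.

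Whether members differed between cell types was tested directly, as the difference of both log2 fold changes over its SE, with a two-sided normal p adjusted over all rows tested in both tables. Between ESCs and macrophages 19 of 131 members differed (14.5%), against 23.7% of all rows. Between ESCs and NPCs 15 of 133 differed (11.3%), against 12.6%, and between macrophages and NPCs 16 of 146 (11.0%), against 12.4%. These counts depend on how the tables are oriented. With the sign of the macrophage table turned, 23 of 131 members (17.6%) differed from ESCs, against 27.9% of all rows. With the sign of the NPC table turned, 24 of 133 members (18.05%) differed between ESCs and NPCs, against 16.2%, and 32 of 146 (21.9%) between macrophages and NPCs, against 19.9%. With a base mean of at least 50 in both tables, 13 of 65 members differed between ESCs and macrophages (20.0%, against 30.6%), 8 of 66 between ESCs and NPCs (12.1%, against 15.5%) and 9 of 64 between macrophages and NPCs (14.1%, against 17.2%). With the tables as deposited, 33 members had at least 1 of these 50 differences. No like count was made over all rows.

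MER45C, Charlie15a, MER102c and MamTip2b each had a pair of large differences. MER45C in macrophages stood apart from both other cell types: ESCs minus macrophages gave -3.67 ± 0.36 (adjusted p 1.93e-22) and macrophages minus NPCs 3.34 ± 0.40 (adjusted p 1.04e-14). For Charlie15a, ESCs minus NPCs gave 2.58 ± 0.35 (adjusted p 1.13e-11) and macrophages minus NPCs 3.16 ± 0.27 (adjusted p 6.87e-29). MER102c differed in all 3 pairs, at -0.58 ± 0.19 for ESCs minus macrophages, 2.00 ± 0.30 for ESCs minus NPCs and 2.59 ± 0.28 for macrophages minus NPCs. For MamTip2b, ESCs minus NPCs gave -2.36 ± 0.29 and macrophages minus NPCs -2.10 ± 0.28. hAT-N1_Mam, called in each table, was not among the members that differed. Its differences were 0.23 for ESCs minus macrophages (95% interval -0.39 to 0.84), 0.35 for ESCs minus NPCs (-0.49 to 1.18) and 0.12 for macrophages minus NPCs (-0.69 to 0.92), intervals that leave room for differences near 1 on the log2 scale.

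**Figure D4:**
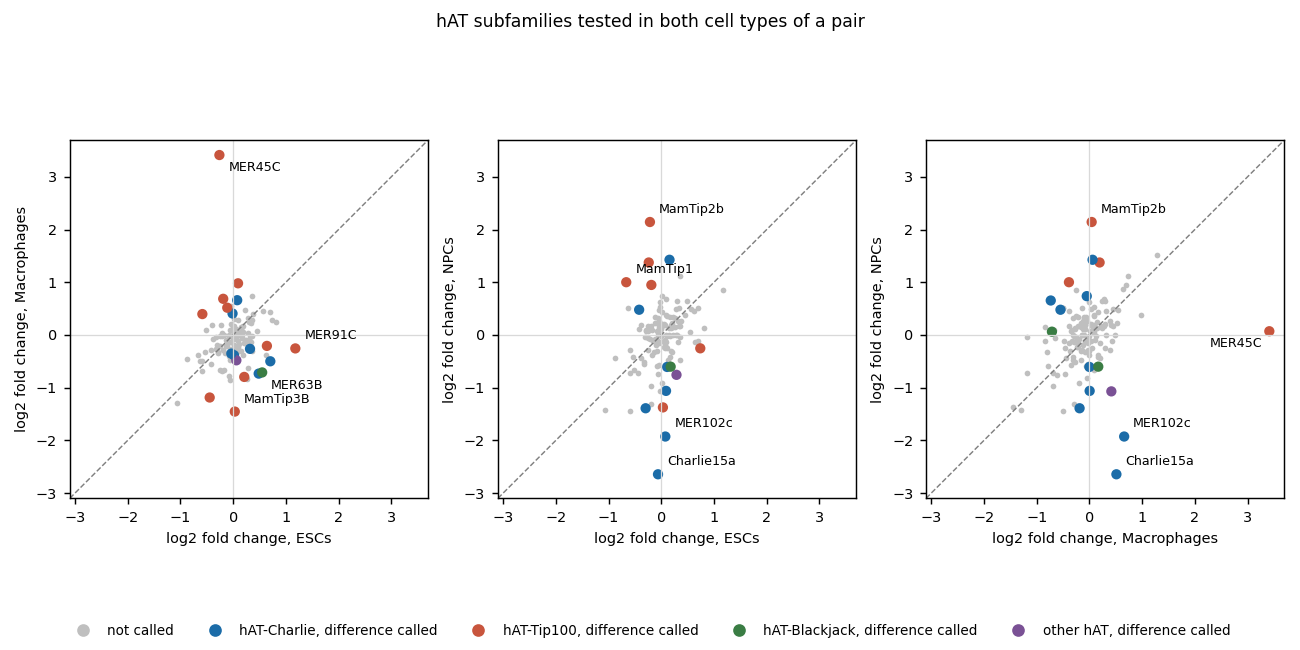
Log2 fold change of hAT subfamilies in the first cell type of a pair (horizontal axis) against the second (vertical axis); coloured points differ between the cell types at an adjusted p under 0.05, the dashed line marks equal values, and the 4 largest differences are named per panel. MER45C lies far from the line in both panels that hold macrophages, and Charlie15a and MER102c in both that hold NPCs.

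Calls were also counted by name stem, meaning the letters and first number of a name. No stem held more than 5 members, and no like count was made over all rows, so these counts are description only. Among stems with at least 2 tested members, 24 of 31 had no call in ESCs, 6 had 1 and 1 had more. In macrophages 12 of 33 had none, 18 had 1 and 3 had more, and in NPCs 19 of 34 had none, 14 had 1 and 1 had more. Where a stem held more than 1 call, all its calls had the same sign. In MER58, of which MER58A to MER58D were tested, MER58C was negative in ESCs and macrophages while MER58A lay at 0.11 ± 0.08 and 0.00 ± 0.07 there. In NPCs their values were alike, at -0.61 ± 0.16 for MER58A, which was called, and -0.72 ± 0.29 for MER58C, which was not. In MER5, MER5B was negative in macrophages and NPCs while MER5A1 lay at 0.04 ± 0.10 and -0.24 ± 0.14 there in the authors' deposited tables. In MER63, MER63B lay at 0.55 ± 0.16, -0.71 ± 0.12 and 0.06 ± 0.17 in ESCs, macrophages and NPCs, and MER63A at 0.18 ± 0.18, 0.17 ± 0.09 and -0.60 ± 0.21. Among Arthur elements, macrophages had Arthur1B at -1.19 ± 0.14 and Arthur1C at 0.40 ± 0.28, and NPCs had Arthur1A at 1.38 ± 0.26 and Arthur1B at -0.73 ± 0.32, in the authors' deposited tables. Differences between rows of 1 table share their libraries and were not tested.

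DNA transposons of other classes, 136 rows such as Tigger and mariner elements, had 7 positive and 7 negative calls of 94 tested in ESCs, 12 and 3 of 117 in macrophages and 5 and 4 of 114 in NPCs. Their median log2 fold change was -0.03, 0.07 and 0.04 in the authors' deposited tables, in that order. The shares called of these classes were 14.9%, 12.8% and 7.89%, against 22.2%, 25.8% and 11.8% of all tested rows. In macrophages 13.3% of all tested rows were called positive and 12.5% negative. No test was made between these classes and the hAT rows.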

How the data were processed

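Per the labels' protocols, stranded paired-end poly(A) libraries were made, which deplete RNA without a poly(A) tail. The submitters' processing notes name build mm10 and, with no roles, DESeq2, featureCounts, TopHat2 2.0.13, Bowtie2, deepTools and Trim Galore. Per the file headers, the authors' tables are DESeq2 results: the base mean (a signal, mean reads over size factors), the log2 fold change and its SE (log2), the Wald score, and the p-value with its adjusted p-value. The deposited score equalled log2 fold change over SE, and the adjusted p a Benjamini-Hochberg adjustment, in all rows with values (1341, 1306 and 1326 with a p in ESCs, macrophages and NPCs; relative tolerance 1e-06). The sources used here do not say how reads fitting several copies or subfamilies were counted, or with which strand setting, so related rows can share reads and reads of host genes can enter a row. Log2 fold changes of members without an adjusted p reached 0.67 at most. At the lowest base means errors were narrower: in ESCs the SE was 0.14 for UCON81 (base mean 0.319) and 0.34 for Charlie10b (7.06). Values, most of all those of rows with few reads, may have been drawn towards 0, to a different extent in each cell type. This was not tested, and all folds, intervals and differences take the values as deposited.

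The authors' adjusted p over the whole table was the main test, since a count model needs values per library. Differences between cell types were computed in Python 3.11.15 with scipy 1.17.1, tested on simulated data, and take the tables as oriented alike. Members, lists and rules were chosen with earlier results of these data known. Named were all called members, the 5 with the most reads per table and all that differed between cell types, with further rows of the same name stem. No label says that replicates came from separate cultures or animals, and the spread behind the p-values may be technical. Alternatives were other adjustments, a base mean of at least 50, centring, a minimum absolute change of 0.5 and turned signs. The depth of single libraries is unknown here.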

Additional observations from a re-analysis of the deposited data

Results flagged for a closer look

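Each result below is a difference of log2 fold changes between 2 cell types with an adjusted p under 0.05 (two-sided normal test, adjusted over all rows tested in both tables), computed with both tables taken as oriented alike.

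For ESCs minus macrophages, 19 members differed. Of hAT-Tip100, the difference was -3.67 for MER45C, 1.49 for MamTip3B, 1.44 for MER91C, 1.01 for MER91A, -0.98 for Arthur1C, -0.89 for Zaphod2, -0.87 for MER96B, 0.85 for MER45R, 0.74 for Arthur1B and -0.63 for MER115. Of hAT-Charlie, it was 1.22 for Charlie30b, 1.21 for Charlie29b, 0.58 for MER117, -0.58 for MER102c, -0.42 for Charlie4z, 0.40 for Cheshire and 0.32 for MER5B. MER63B of hAT-Blackjack gave 1.26 (adjusted p 1.55e-08) and hAT-1_Mam 0.54. In 12 of the 19 the ESC value was the higher one, and the sides of differences were not counted over all rows.

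For ESCs minus NPCs, 15 members differed. The hAT-Charlie differences were 2.58 for Charlie15a, 2.00 for MER102c, -1.27 for Charlie6, 1.15 for MER102b, 1.09 for MER113A, -0.90 for Charlie16a and 0.72 for MER58A. The hAT-Tip100 differences were -2.36 for MamTip2b, -1.67 for MamTip1, -1.61 for Arthur1A, 1.41 for MamTip3B, -1.14 for MER96B and 0.99 for MER45A. MER121 gave 1.05 and MER63A 0.78. MamTip1 had a base mean of 23.8 in ESCs and 20.4 in NPCs.

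For macrophages minus NPCs, 16 members differed. The hAT-Charlie differences were 3.16 for Charlie15a, 2.59 for MER102c, -1.39 for Charlie30b, -1.37 for Charlie6, 1.20 for MER113A, 1.07 for MER102b, -1.03 for Charlie16a, -0.79 for MER103C and 0.61 for MER58A. The hAT-Tip100 differences were 3.34 for MER45C, -2.10 for MamTip2b, -1.39 for MamTip1 and -1.18 for Arthur1A. MER63A and MER63B of hAT-Blackjack differed in opposite directions, at 0.77 and -0.77, and UCON105 gave 1.49 at base means of 4.60 in macrophages and 18.8 in NPCs.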

How the results depend on the processing

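Of the alternatives for calls, only centring could change a sign, and no called member changed sign under it. A Bonferroni adjustment left 3 called members in ESCs, 12 in macrophages and 6 in NPCs. An adjusted p under 0.01 left 14 in NPCs. The other alternatives kept the count within 1.5 times, at 7 to 10 in ESCs, 22 to 31 in macrophages and 16 to 24 in NPCs. Adjusting over every row with a p lost MER5B (0.0520) and MER91C (0.0506) in NPCs. A base mean of at least 50 added Arthur1C in ESCs (0.0499) and Charlie1a in NPCs (0.0467), since fewer rows were adjusted over. It left 8 differences between ESCs and NPCs and 9 between macrophages and NPCs, with fewer members tested. With the sign of the NPC table turned these counts were 24 and 32; with that of the macrophage table turned, ESCs and macrophages differed in 23, of which 8 were among the 19. Among tested members, those with a base mean under 50 had the widest errors by the median. Tested members in NPCs had wider errors than in the other cell types at like base means. Members without an adjusted p had narrower errors in macrophages and NPCs, with a median SE of 0.21 and 0.27. Tested members with a base mean under 50 had 0.31 and 0.37 there. No paired analysis was possible because the tables hold 1 value per contrast and no values per library; leaving out replicates, edgeR and a DESeq2 refit were not run for the same reason.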

Other observations

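Of the 33 members that differed between cell types, 3 were called in no single table. MamTip1, a mammalian hAT-Tip100 element, stood, per the authors' deposited tables, at -0.66 ± 0.30 in ESCs, -0.39 ± 0.34 in macrophages (base mean only 1.52) and 1.001 ± 0.37 in NPCs. Arthur1C lay at -0.58 ± 0.24, 0.40 ± 0.28 and -0.29 ± 0.42, and MER117, a hAT-Charlie element, at 0.32 ± 0.17, -0.26 ± 0.13 and -0.13 ± 0.21, in the same order.

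Members without an adjusted p numbered 19 in ESCs, with base means up to 7.28, 5 in macrophages and 3 in NPCs. One of the 5 in macrophages was UCON81, of hAT-Charlie, with a base mean of 0 and no p there. UCON81 and EuthAT-N1a had an adjusted p in no table. Eutr16, left outside by its class name, was not called: it stood, per the authors' deposited tables, at 0.46 ± 0.32 in ESCs, 0.22 ± 0.37 in macrophages and -0.59 ± 0.37 in NPCs.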
